A study of Drosophila melanogaster with 8 samples.

Results

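The regions described here are 52 stretches of the fly genome with Dam methylation in the midgut. Scaled per sequenced read, these stretches had nearly the same level with and without tagged Cph. They were chosen from 16232 stretches of at least 200 bp that lay in peaks of all 8 NanoDam libraries. Of these, 15276 overlapped a peak called in a Cph library over its control and were set aside, which left 956. The members are those of the 956 in which the level in the Cph library, divided by that in the control of the same number, lay between 0.8 and 1.25 in all 4 pairs. This is 5.44% of the 956 and 0.320% of all common stretches. The level is the pileup, the height of overlapping reads that the peak caller gave for the peak covering the stretch, per 1000000 reads (tags) of the library, called normalised pileup below. Because these ratios chose the members, they are given as a description and were not tested. A ratio inside the band does not show that the levels were equal. The ratio also depends on the scaling. With each library centred on its median over all common stretches, the members' median log2 difference (Cph minus control) was -0.229. It was above 0 in 1 of the 52 members.

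The libraries came from 4 Cph NanoDam and 4 NanoDam-only control samples, each of 30 dissected adult midguts. In both conditions the *esgTS* driver, which is active in intestinal progenitor cells (intestinal stem cells and enteroblasts) and is repressed at low temperature, expressed NanoDam. The Cph samples also carried CphYFP, the endogenous Cph protein tagged with YFP, which the controls lacked, so that in the controls the enzyme had no tagged protein to bind. Flies were reared at 18 °C and moved to 29 °C at an age of 3 to 5 days for 17 h. In each condition, replicates 3 and 4 have a batch 2 label, whereas replicates 1 and 2 have none. The Cph libraries held 55557571 to 107278227 tags and the controls 70573626 to 125721243. The control was the deeper library of every pair, by 1.14 to 1.31 times. The driver is meant to confine the enzyme to progenitors within the whole midgut, and the lists hold no expression values with which to check the cell type.

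NanoDam joins the bacterial Dam methylase to a nanobody that recognises GFP and YFP. Dam adds a methyl group to the adenine of GATC, and the methylated sites are cut and sequenced as the fragments between neighbouring sites. Cph is the fly relative of the human zinc finger repressors BCL11A and BCL11B. Free Dam also methylates DNA wherever the chromatin lets it in, which is why a control without a tagged protein is sequenced. Accessibility was not measured in these samples, so the members are called steady common regions and not open regions.

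The sequences of 5 members are printed to show how the regions lie relative to the sites that Dam can methylate. They are the centre, up to 300 bases, of 4 named members whose printed bases hold no untranslated region, and the region in *Delta*. All are the plus strand of the RefSeq sequence of the assembly of the files (release 6 of the *Drosophila* genome), 5′ to 3′. Capitals mark the Dam site GATC and the hexamer TGACCA or its reverse complement TGGTCA, the motif known for human BCL11A.
*CG2202*, chrX:10850932-10851158: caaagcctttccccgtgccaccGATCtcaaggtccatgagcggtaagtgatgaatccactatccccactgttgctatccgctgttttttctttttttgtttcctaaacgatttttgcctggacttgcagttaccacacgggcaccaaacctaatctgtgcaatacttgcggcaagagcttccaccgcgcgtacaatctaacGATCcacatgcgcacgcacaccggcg
*CG7692*, chr3L:17355017-17355316: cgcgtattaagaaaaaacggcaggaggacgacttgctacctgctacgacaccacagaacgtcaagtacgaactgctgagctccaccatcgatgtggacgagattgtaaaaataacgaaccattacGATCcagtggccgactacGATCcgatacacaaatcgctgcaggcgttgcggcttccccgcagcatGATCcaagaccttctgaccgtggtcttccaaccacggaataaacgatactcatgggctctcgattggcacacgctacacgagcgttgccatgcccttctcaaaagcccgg
*dsb*, chr3L:1898422-1898721: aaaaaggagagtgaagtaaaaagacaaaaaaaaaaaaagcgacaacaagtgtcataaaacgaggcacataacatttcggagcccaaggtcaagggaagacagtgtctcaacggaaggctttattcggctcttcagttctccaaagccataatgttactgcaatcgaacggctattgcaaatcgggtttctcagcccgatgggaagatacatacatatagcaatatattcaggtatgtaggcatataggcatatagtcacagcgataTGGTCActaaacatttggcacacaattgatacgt
intergenic region on 2L, chr2L:14516995-14517294: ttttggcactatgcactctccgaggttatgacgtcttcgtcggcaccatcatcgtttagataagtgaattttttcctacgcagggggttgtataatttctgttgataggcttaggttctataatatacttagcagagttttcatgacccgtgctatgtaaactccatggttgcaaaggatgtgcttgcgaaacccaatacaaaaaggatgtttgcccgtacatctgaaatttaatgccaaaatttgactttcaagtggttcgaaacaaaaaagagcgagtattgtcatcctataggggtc
*Delta*, chr3R:19308778-19308992: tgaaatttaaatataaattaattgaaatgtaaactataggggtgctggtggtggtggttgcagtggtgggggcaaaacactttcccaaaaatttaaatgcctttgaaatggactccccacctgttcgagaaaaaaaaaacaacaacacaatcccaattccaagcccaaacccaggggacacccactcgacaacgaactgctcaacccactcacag
The printed bases hold 2 Dam sites in *CG2202* and 3 in *CG7692*, whereas those in *dsb*, in *Delta* and between genes hold 0. The whole regions hold 5 sites in *CG7692* and 1 between genes, the rest of them outside the printed bases. A hexamer of the BCL11A type stands in the printed bases of *dsb* alone, and the whole intergenic region also holds 1.

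Of the 52, 32 held 0 sites and 20 held at least 1, a share of 38.5% with a site beside 60.1% of all common stretches and 45.2% of the 956. A longer stretch has more chances to hold a site, and per kb the order differed, with 3.12 sites in the members, 2.997 over all common stretches and 2.39 over the 956. Each of the 32 lay inside a single fragment between 2 neighbouring sites. A site lay within 10 bp of both ends in 11 of the 32, of one end in 19 and of neither in 2, where the limit of 10 bp was chosen after the distances were seen. Over all 6478 common stretches without a site, 63.1% had a site within 10 bp of both ends, compared with 34.4% of the 32. The larger gap to a site had a median of 87.5 bp in the 32 and 8 bp over all 6478. Among the 956, the 524 without a site had a median larger gap of 118 bp. A wide gap on one side was thus not particular to the members. In *dsb* the region of 345 bp ended 8 bp from a site on each side. The region in *Delta* ended 8 bp from a site on one side and 87 bp on the other. The regions in *AGO3*, an Argonaute protein of the piRNA pathway, and in *f-cup* began and ended within the flanking sites themselves. The fragments of the 32, measured from cut to cut, had a median of 350 bp (202 to 965 bp). The median was 355 bp over all common stretches without a site and 420 bp over those among the 956. The spread differed even where the medians were close. Fragments of 300 to 400 bp, a range that was not set in advance, made up 65.6% in the 32. They made up 28.3% over all common stretches without a site and 25.4% over those among the 956.

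**Figure D1:**
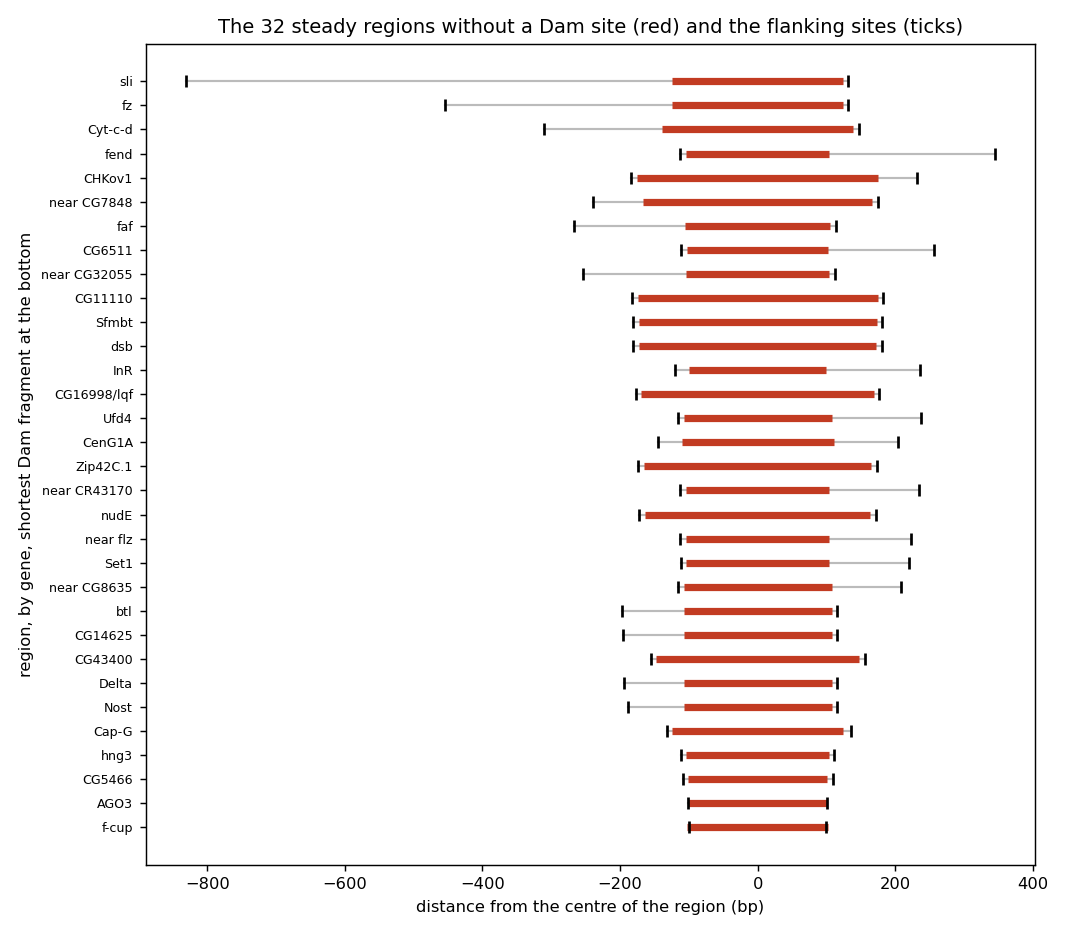
Steady common regions without a Dam site of their own (red bars, 32 regions, named by gene), with the flanking sites as ticks and the distance from the region's centre in bp on the x axis. In 11 of the 32 both ticks stand within 10 bp of the bar, and the longest fragment, in *sli*, is 965 bp.

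The median length of the members was 228 bp (200 to 889 bp), close to the 249.5 bp of the 956 from which they were drawn and below the 390 bp of all common stretches. The longest was an intergenic region on 2L, chr2L:14516701-14517589, whose nearest transcription start is that of a glycine tRNA gene, *tRNA:Gly-GCC-1-4*. Next came regions in *Col4a1*, which encodes a collagen IV chain of the basement membrane (785 bp), and *Whamy*, a WASP family regulator of actin assembly (725 bp). The mean level over 8 libraries had a median of 4.89 units of normalised pileup in the members, 7.26 over the 956 and 9.36 over all common stretches. The median fold enrichment over local background, as the peak caller gave it, was 2.55 in the members, 3.08 over the 956 and 3.19 over all common stretches. In every library the median level of the members was below that of all common stretches. In the Cph libraries it was 4.68, 5.68, 4.61 and 4.90 for replicates 1 to 4, and in the controls 5.04, 5.62, 5.12 and 4.66. These correspond to 4.97 ± 0.490 (SD, n = 4) and 5.11 ± 0.393 (SD, n = 4), and the 2 groups overlap. The band favours this overlap, so nothing is read from it.

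**Figure D2:**
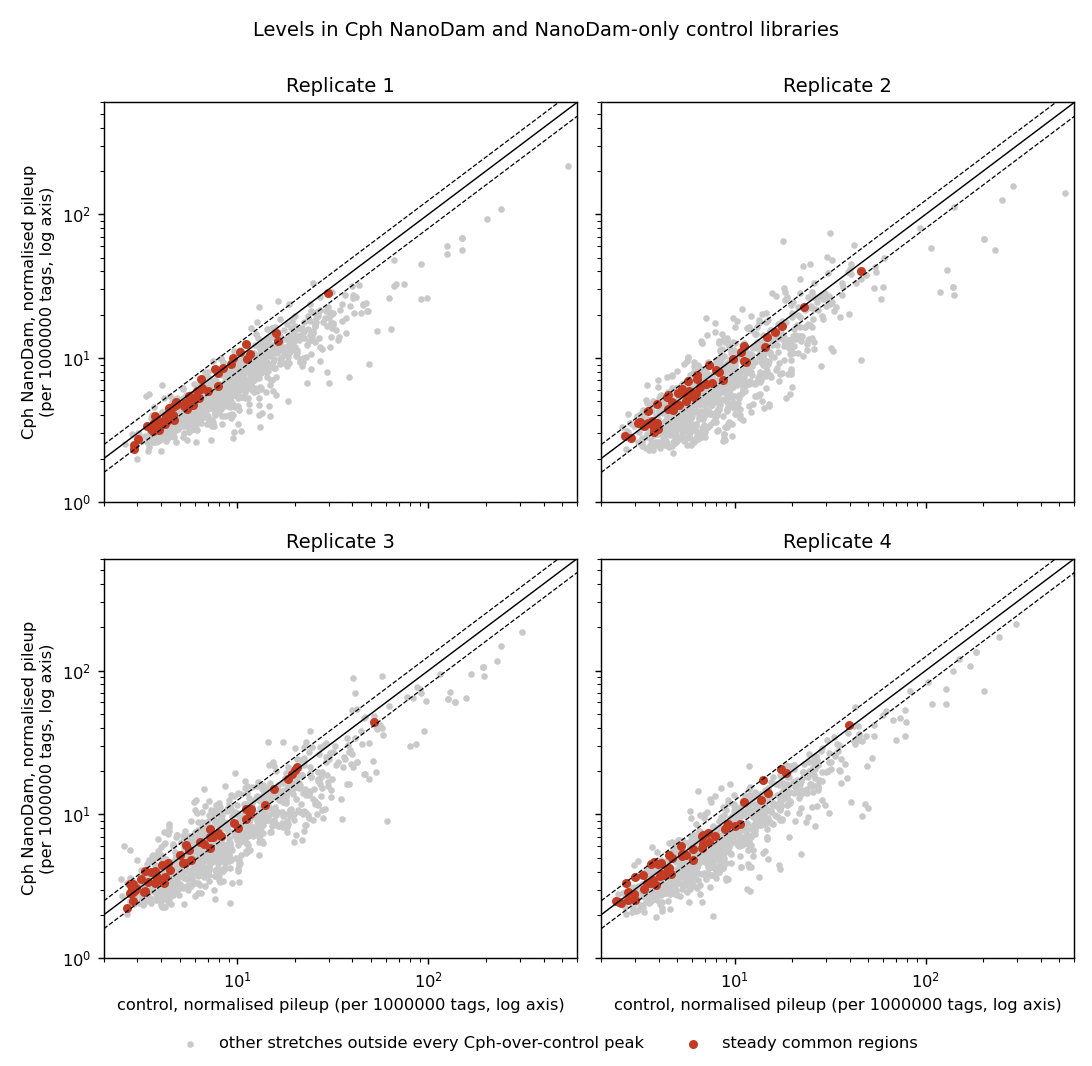
Level in the Cph NanoDam library (y axis) against the control library (x axis) of each replicate pair, both as normalised pileup on log axes. Red points are the 52 steady common regions, grey points the other stretches outside every Cph-over-control peak, the solid line equality and the dashed lines the band from 0.8 to 1.25. Of all 956 stretches, 29.9% lie in the band in pair 1 and 40.2%, 40.2% and 43.5% in pairs 2 to 4, and the highest member in every panel is *Whamy*.

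The rest of the 956 fell mainly on the low side. The 956 exclude every stretch in a Cph-over-control peak, which favours low ratios. The counts and medians below therefore describe what the rule left, and nothing about Cph is read from them. In 194 stretches the Cph level was below the band in all 4 pairs, and in 1 stretch, in *mrj*, it was above the band in all 4, with ratios of 1.53, 3.64, 2.21 and 1.82. The remaining 709 were on different sides of an edge in different pairs. Of the stretches that were not members, 734 missed only the lower edge, 38 only the upper edge and 132 both. The median ratio of the 956 was 0.728, 0.799, 0.802 and 0.780 in pairs 1 to 4, so the typical stretch was near or under the lower edge. Over all 16232 common stretches the medians were 0.930, 1.28, 1.21 and 1.08. The steady common regions had medians of 0.913, 0.983, 0.964 and 0.944 and thus stood on the upper side of the stretches from which they were drawn. In 12 members the ratio was below 1 in all 4 pairs, and in 1, in *wupA*, it was above 1 in all 4.

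The band was narrow against the spread of the pairs. At the lower edge, the members closest inside were in *fz*, the Wnt receptor Frizzled (lowest ratio 0.802), *nudE*, a dynein regulator (0.802), and *CG43400* (0.803). The stretches closest outside overlapped *Egfr*, the EGF receptor, and *CG30286* (0.799), *VGAT*, a vesicular GABA transporter (0.797), and *gprs* (0.797). At the upper edge, *Nost* (highest ratio 1.248), *CG43400* (1.24) and *sli*, the Robo ligand Slit (1.226), lay inside. The stretches closest outside were in *REPTOR*, a transcription factor controlled by TORC1 (highest ratio just above 1.25), between genes at chr2R:4166707-4167141 (1.27) and in *Vps13D*, which encodes a lipid transfer protein (1.29). *CG43400* spanned nearly the whole band, with ratios of 0.803, 1.24, 1.03 and 0.899. Which stretches were members depended on the scaling. With each pair centred on the median ratio of the 956, 125 stretches met the rule, and 8 of the 52 members were among them. Ratios between libraries of different number were less even. Of 12 such ratios per region, the median member had 7 inside the band, beside 4 over the 956. Choosing members by the ratios within pairs favours this difference, so nothing is read from it. One member, the region in *Delta*, had all 12 inside.

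**Figure D3:**
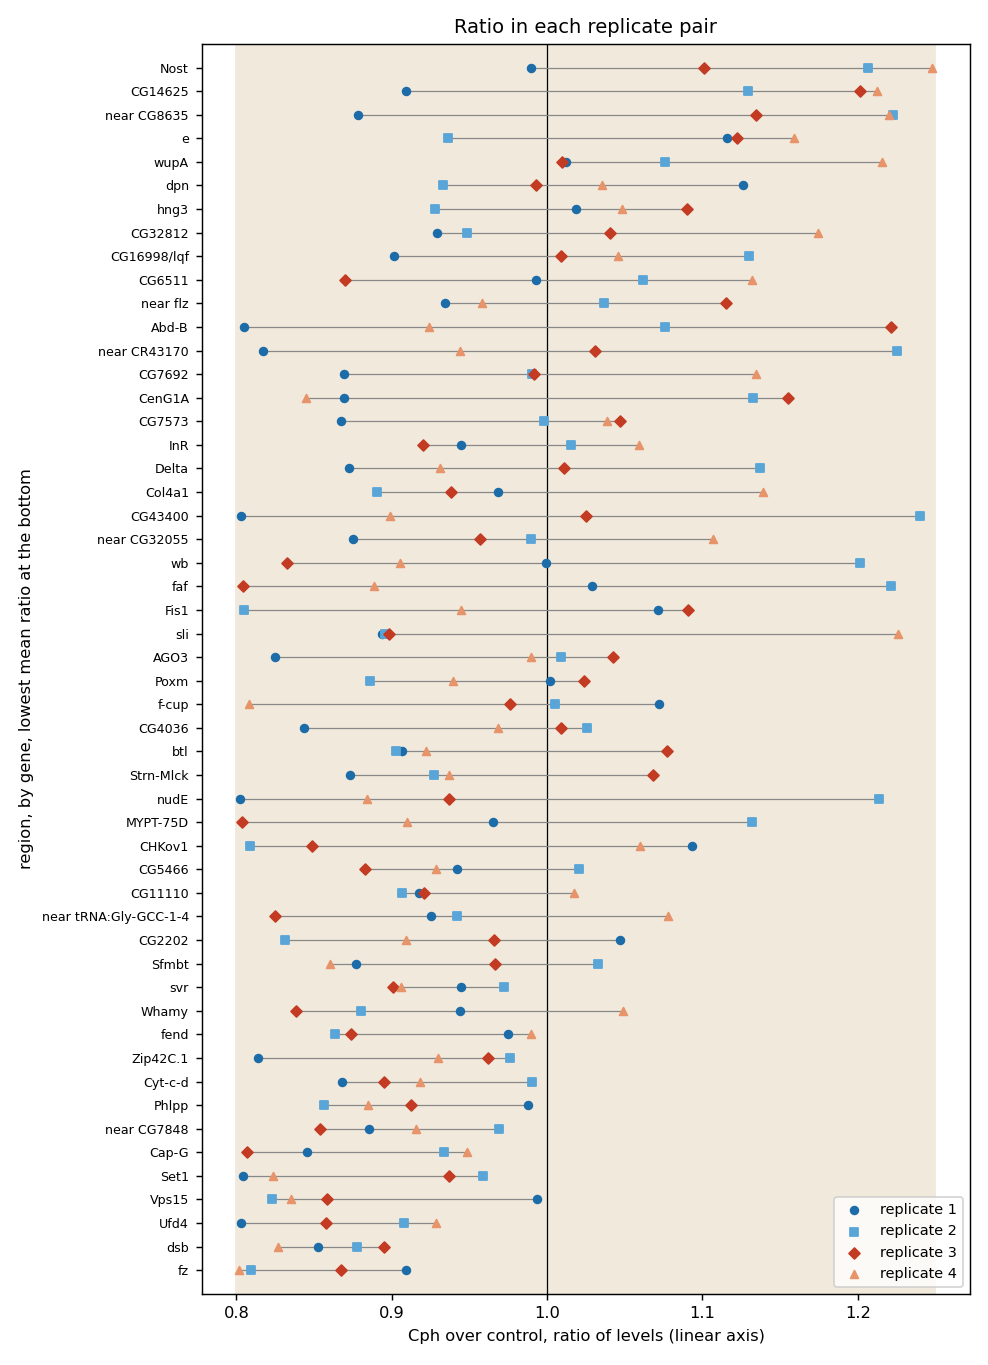
Ratio of the Cph level to the control level (x axis, linear) in each of 4 replicate pairs for the 52 steady common regions, ordered by mean ratio and named by gene. Grey lines join the lowest and highest pair and the shaded area is the band that chose the members, from 0.8 to 1.25.

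*Whamy* had the highest mean level of all members, 40.1 units of normalised pileup, at chr3R:9773364-9774088 in a coding exon. Its level was 28.2, 40.4, 43.6 and 41.5 in Cph replicates 1 to 4 and 29.8, 45.9, 52.0 and 39.6 in the controls. Replicate 1 was the lowest library of both conditions. *CG32812*, over a 5′ UTR on X, had 14.9, 16.8, 21.4 and 20.6 in the Cph libraries and 16.01, 17.7, 20.6 and 17.6 in the controls, with overlapping groups. These levels belong to peaks of 973 to 2113 bp, which held another common stretch in all 8 libraries. The region itself is 249 bp long and lies 67 bp from a Cph-over-control peak. *Zip42C.1*, a zinc transporter, and *dpn*, a Hes family bHLH repressor known from neural stem cells, followed with mean levels of 17.5 and 16.4. In *dpn* the level was 12.5, 15.2, 19.1 and 19.3 in the Cph libraries and 11.1, 16.3, 19.3 and 18.6 in the controls. An antisense RNA gene overlaps this region, and peaks carry no strand. The other members of the highest 6, *wupA* (troponin I) and *CG2202*, had mean levels of 14.0 and 12.9. The lowest member, an intergenic region at chr2R:16436623-16436956, had a mean level of 2.90.

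The most even ratios belonged to members of low or moderate level. The SD of the log2 ratio over the 4 pairs was smallest in *dsb*, 0.05001, where the ratios were 0.852, 0.878, 0.895 and 0.827. All 4 pairs of this region therefore lay below 1. The *dsb* level itself varied more than its ratio, with a range of 2.94 to 5.36 among Cph libraries and 3.28 to 6.10 among controls. *svr*, which encodes a carboxypeptidase D, had ratios of 0.945, 0.972, 0.901 and 0.906 (SD of log2 0.0523) and levels of 6.20 to 8.64 among Cph libraries and 6.57 to 9.60 among controls. *CG11110*, an intergenic region and *Cyt-c-d*, a cytochrome c with a role in sperm differentiation, followed with SDs of 0.0771, 0.0773 and 0.0811. Over all members the median SD of the log2 ratio was 0.137, compared with 0.312 over the 956, a difference that the band itself imposes.

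Several members lay in genes of signalling pathways that act in intestinal progenitors. They are grouped here after the genes were known, and nothing is tested on them. The Notch ligand *Delta* held a member in an intron at chr3R:19308778-19308992. Its level was 4.61, 6.07, 5.64 and 5.201 in the Cph libraries and 5.29, 5.34, 5.58 and 5.59 in the controls. The 4 controls differed by 1.06 times, the smallest range over control libraries among the 52 members, whereas the Cph libraries lay on both sides of them. *lqf*, the epsin needed for endocytosis of Notch ligands, shared a coding region with *CG16998*, with levels of 3.57, 5.73, 2.88 and 2.90 in the Cph libraries and 3.96, 5.07, 2.86 and 2.78 in the controls. *faf*, a deubiquitinase that acts on Lqf, had 4.92, 6.94, 3.31 and 3.81, and 4.79, 5.68, 4.11 and 4.28. In both, replicate 2 was the highest library of each condition. *InR*, the insulin receptor, held a member that also overlaps the non-coding gene *lncRNA:Irar*, with 6.07, 5.87, 4.10 and 4.96 in the Cph libraries and 6.43, 5.78, 4.46 and 4.68 in the controls. *btl*, an FGF receptor, had 2.74, 5.01, 4.00 and 3.73, and 3.02, 5.55, 3.72 and 4.05. Members also lay in *fz*, in *sli* and in *Phlpp*, a phosphatase of the Akt pathway, with mean levels of 4.87, 3.78 and 9.13. The nearest Cph-over-control peak lay 287 bp from the region in *Delta*, 328 bp in *InR* and 392 bp in *btl*. For *faf*, *sli*, *lqf*, *Phlpp* and *fz* the distance was 562, 573, 870, 1521 and 2146 bp. A steady region is therefore no statement about the rest of its gene. Chromatin genes among the members were *Sfmbt*, of the Polycomb group, *Set1*, a histone H3K4 methyltransferase, and the condensin subunit *Cap-G*. The Hox gene *Abd-B* held a member in an intron.

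Marker genes of gut cell types rarely held a member. Among progenitor markers 1 of 11 did (*Delta*), although all 11 held a common stretch. The counts were 0 of 8 for enterocytes, 0 of 13 for enteroendocrine cells, 0 of 6 for visceral muscle, 0 of 4 for neurons, 0 of 3 for the germline, 0 of 2 for the cell cycle and 0 of 10 for housekeeping genes. Over all 18315 annotated genes, 100 (0.546%) held a member in the gene body or within 3 kb of a start, and 13598 (74.2%) held a common stretch. At this rate lists of 2 to 13 genes would show few members or 0, so the counts say little about cell types. No gene held more than 1 member, and the *Cph* gene held 0.

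The members lay in gene bodies about as often as other common stretches. Each was counted once, by the first of these that it overlapped: a coding exon (31 members), a 5′ UTR (3), a 3′ UTR (0), a non-coding exon (1), an intron (11) or no gene (6). Coding exons thus made up 59.6% of the members and 57.1% of all common stretches, introns 21.2% and 21.3%, and intergenic regions 11.5% of each. Within 3 kb of a transcription start lay 38 members, or 73.1% (95% exact Clopper-Pearson interval 58.98% to 84.43%, which covers counting error only), beside 70.8% of all common stretches. A start itself was covered by 3 members (5.77%), those in *f-cup*, *CG32812* and *wupA*, compared with 11.1% of all common stretches and 25.3% of the 194 stretches below the band. The members were also shorter than the stretches of both sets, and the part of length in this share was not tested. By chromosome arm, 10 lay on 2L, 10 on 2R, 14 on 3L, 11 on 3R, 7 on X and 0 on 4 or Y, beside 17.1%, 19.6%, 20.5%, 23.2%, 18.5%, 0.789% and 0.314% of all common stretches. The members' shares on the first 5 were 19.2%, 19.2%, 26.9%, 21.2% and 13.5%. The region in *AGO3* was the 1 member that overlapped an annotated transposable element, a share of 1.92% beside 4.37% of all common stretches. The nearest Cph-over-control peak was at a median distance of 662 bp (67 to 19342 bp), and within 1000 bp in 32 of the 52 members.

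**Figure D4:**
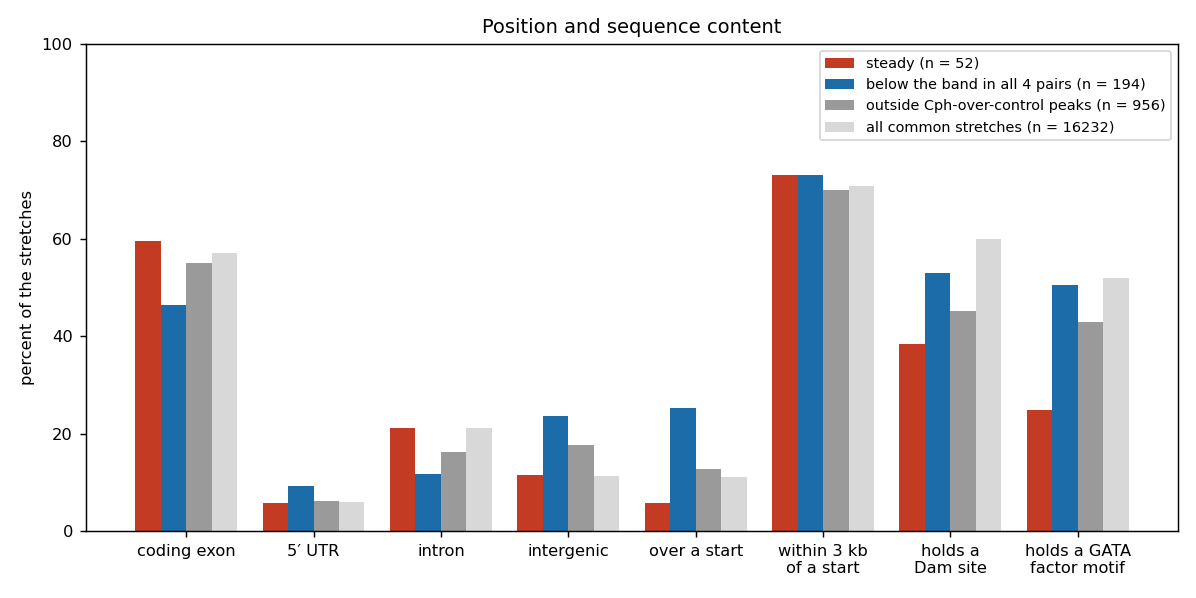
Share of stretches (y axis, percent) by annotated position, presence of a Dam site and presence of the motif of GATA factors, for the steady common regions (red), the stretches below the band in all 4 pairs (blue), all stretches outside Cph-over-control peaks (dark grey) and all common stretches (light grey). Steady regions covered a transcription start in 5.77%, the lowest of the 4 sets. They held the GATA motif in 25%, against 42.9% of the stretches outside Cph-over-control peaks and 51.9% of all common stretches.

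Motif content was counted on both strands as an exact match of letters, and a longer stretch has more chances to hold each. GATAA, recognised by GATA factors such as the enterocyte regulator GATAe, occurred in 13 members (25%) and in 51.9% of all common stretches. Per kb this was 1.06 and 2.06 matches, beside 1.88 over the 956. TGACCA occurred in 13 members (25%) and in 24.8% of all common stretches, and in 17.4% of the 956. The members with it include *Whamy*, *fz*, *btl*, *sli*, *Cap-G* and *dsb*. CAGGTG, the motif of Snail family proteins such as Esg, occurred in 12 members (23.1%) and in 24.0% of all common stretches. GAGAG, bound by GAGA factor, occurred in 17 (32.7%) and 45.1%. TGGGAA, bound by the Notch effector Su(H), occurred in 8 (15.4%) and 23.1%, the E-box CANNTG, which includes CAGGTG, in 43 (82.7%) and 86.8%, and TATCGATA, the element of DREF, in 0 and 1.01%. Over the 956 the shares were 42.9% for GATAA, 19.6% for CAGGTG, 40.5% for GAGAG, 18.1% for TGGGAA, 83.4% for CANNTG and 0.628% for TATCGATA. Matches per kb compared otherwise for some motifs. In the members and over all common stretches, TGACCA had 0.864 and 0.661 per kb and CAGGTG 0.930 and 0.644. GAGAG had 1.86 and 1.99, TGGGAA 0.532 and 0.620, and CANNTG 6.31 and 5.93. Median GC content was 50.7% in the members and 48.8% over all common stretches. These shares are descriptions of sequence and show no binding.

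The levels of the members between the batch 2 replicates (3 and 4) and the others were not used by the rule, and were compared over 4 pair means, each the mean log2 level of the Cph and control library of one number. Over all common stretches, limma called 1271 of 16232 at an adjusted p under 0.05 (Benjamini-Hochberg), 7.83%, with 467 (2.88%) higher in replicates 3 and 4 and 804 (4.95%) lower. Among the 52 members it called 0, and 13 had an unadjusted p under 0.05, beside 4371 of the 16232. This rests on few samples. Without replicate 1 it called 15 members (5750 stretches in all) and without replicate 2 it called 11 (5572 in all), each with 1 pair left on one side that was assumed to vary like the others. Without replicate 3 or 4 it called 0 members (148 and 104 in all). The median level over the members was 4.88, 5.66, 4.92 and 4.85 in pairs 1 to 4. The sets differed by -0.11 on the log2 scale, with p = 0.667 in a 2-sided exact permutation test that cannot go below 0.333.

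The largest differences between replicate sets were wider than the band that the ratios of Cph to control had to meet. In *wupA*, over a 5′ UTR at chrX:18116828-18117093, the level was 8.47 and 12.1 in Cph replicates 1 and 2 and 20.3 and 17.2 in replicates 3 and 4. The controls gave 8.37 and 11.2, and 20.1 and 14.2. Both conditions were higher in replicates 3 and 4, with no overlap between the sets, by 0.84 on the log2 scale (SE 0.24, limma adjusted p = 0.0589), which did not pass. *hng3* and *Ufd4*, a ubiquitin ligase, had differences of 0.63 and 0.60 in the same direction (adjusted p = 0.0880 and 0.113 by limma). The largest negative difference was in *Sfmbt*, with 9.85, 11.1, 6.92 and 5.80 in the Cph libraries and 11.2, 10.8, 7.16 and 6.74 in the controls. Its replicates 3 and 4 were below replicates 1 and 2 in both conditions, by a log2 difference of -0.69 (SE 0.21, limma adjusted p = 0.0669). *CG16998* and *lqf* (-0.66) and *CG43400* (-0.58) came next. Over the members the highest library was 1.61 times the lowest in the median region, compared with 2.199 times over all common stretches. The band limits the part of this ratio that lies between Cph and control, so nothing is read from the difference. Among the controls alone, which the rule did not set directly, this ratio was 1.501 in the members and 1.522 over all common stretches.

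**Figure D5:**
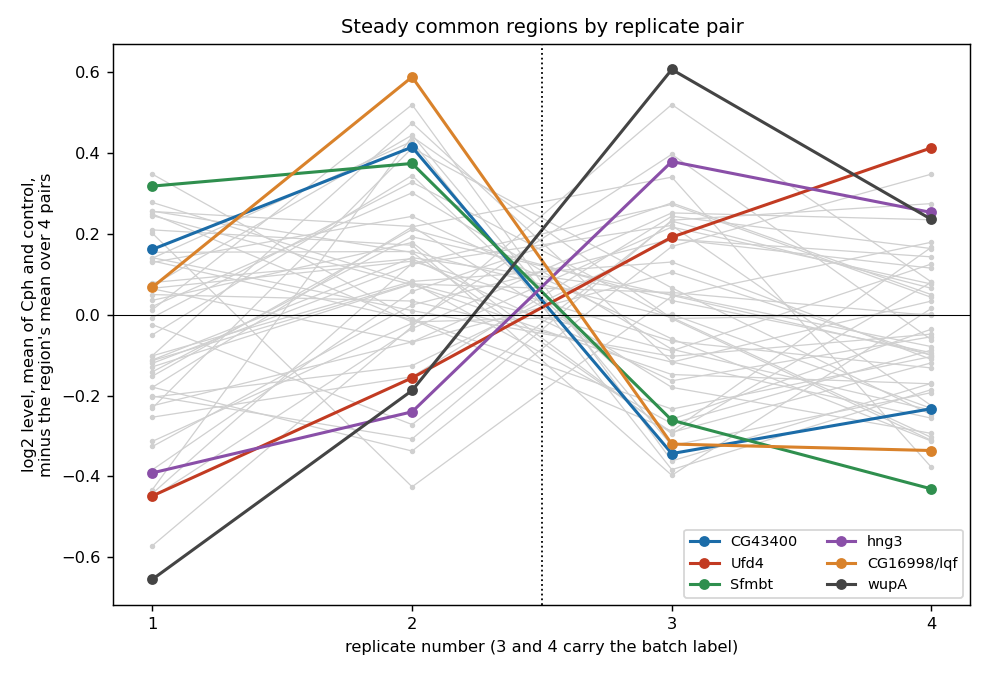
Log2 level of each steady common region (mean of the Cph and the control library, y axis) relative to the region's own mean, for replicate pairs 1 to 4 (x axis), with the dotted line between the unlabelled and the batch 2 replicates. Coloured lines are the 3 members with the largest differences in each direction, among them *wupA* (0.84) and *Sfmbt* (-0.69), and grey lines are the other members.

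The contrast of Cph and control libraries chose the members, so nothing is read from it. In a limma fit with the replicate number as a block, 1272 of 16232 common stretches (7.84%) were called and 0 of the 52 members. The pileup is that of a whole peak and not of the stretch alone. For 36 members the peak held no other common stretch in any library. For 14 it held another in 1 to 7 libraries and for 2, in *CG32812* and *e*, in all 8. Some levels are thus shared with a neighbour.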

How the data were processed

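The 4 Cph NanoDam and 4 control libraries from midguts were used as the authors deposited them. The authors aligned reads with Bowtie2 and called broad peaks with MACS2 2.1.4 per the file headers (q cutoff 0.05, cutoff for broad regions 0.1, effective genome size 140000000, duplicate reads retained), for each library alone and for each Cph library over its control. The deposited lists give, per peak, the pileup, a signal not scaled for depth, fold enrichment as a ratio to local background, and −log10 of the q-value. Pileup was divided by the tags of the header, which corrects for depth but not for the fragment length to which reads were extended (194 to 248 bp). Read counts at a region are unknown, since the lists give peaks alone. Deposited score columns and the narrower copies of the lists were not used.

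Stretches, ratios and the band follow the rule given with the results. A stretch with several peaks would take the highest, which did not occur. Genes came from Ensembl release 115, sequences from RefSeq, and the annotation and the files use the same assembly. A member was named by the genes whose body it overlapped. Fits used limma 3.58.1 in R 4.3.3 on log2 levels of all common stretches, without a pseudocount. Replicate numbers come from the labels, and the authors called each Cph library over the control of its number. The numbers were taken as pairs on that ground. Over all common stretches, the departures of a Cph library and the control of its number from the means of their groups had correlations of 0.402 to 0.507. Different numbers could correlate as much, with 0.524 for Cph replicate 3 and control replicate 4 and 0.481 for Cph replicate 4 and control replicate 3. Cph replicate 2 and control replicate 1 had 0.324, and Cph replicate 1 and control replicate 2 had 0.113. The steps were tested on simulated lists and levels.

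Named members were, by rule, the 6 of highest level, the 5 with the smallest SD of the log2 ratio, the 5 longest, the 3 nearest to each edge of the band on either side, those in marker genes, and the 3 with the largest difference between replicate sets in each direction. Genes of signalling pathways and of chromatin were singled out after their identity was seen. The members, gene lists and motifs were chosen with earlier results of these data known. The p-values measure the spread between these samples. Alternatives covered the length minimum, the band, centring, the peak threshold, the promoter window, the replicate block, replicate sets and each replicate left out.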

Additional observations from a re-analysis of the deposited data

How the results depend on the processing

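The number of steady common regions depended on the band and the scaling. It was 52, and 72 at a minimum length of 100 bp, 3 at 500 bp, 5 with a band from 0.9 to 1.1 and 213 with a band from 0.7 to 1.4. With each pair centred on the median ratio of the stretches outside Cph-over-control peaks it was 125, of which 8 of the 52 members were part, and centred on the median of all common stretches it was 30, with 11 of the 52. Keeping stretches in Cph-over-control peaks gave 1184. Without the replicate block (ratio of group means, setting without pairs) it was 431, and with each replicate left out it ranged from 135 to 208. Dividing the pileup by fragment length too, an alternative chosen after seeing the data, gave 45, with 34 of the 52. The promoter share of 73.1% became 44.2% within 1000 bp of a start, 100% with a minimum of 500 bp and 100% with the band from 0.9 to 1.1, sets of 3 and 5 regions, and ranged from 64.5% to 73.6% with each replicate left out. The ratio of the mean Cph to the mean control level, 0.973, became 0.861 on pileup divided by the median of all common stretches of the library. The median number of Dam sites per kb was 0 (95% interval of the median 0 to 3.82), 2.02 without replicate 4 and 0 without each of the others, and 3.64 with 500 bp added on each side.

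Between replicate sets, 1271 stretches were called over both conditions, 5 in the control libraries alone, 355 in the Cph libraries alone and 0 at a minimum of 500 bp, with 0 members called in each. With libraries centred on their median 1531 were called, 2 of them members. With each replicate left out 104 to 5750 were called. The median difference of the members, -0.11, ranged from -0.21 to -0.00025 with each replicate left out, a check chosen after seeing the data. Between Cph and control, 1272 were called with the replicate block and 160 with no replicate block, and 74 to 2873 with each replicate left out. With libraries centred on their median over all common stretches 1644 were called. No member was called in any of these fits between Cph and control, but that contrast chose the members, so nothing is read from it. In the centred fit the median log2 difference of the members (Cph minus control) was -0.229, and 1 of the 52 was above 0. The tie of numbers was as strong between Cph replicate 3 and control replicate 4 (0.524) as within numbers 3 (0.429) and 4 (0.479). Causes of these differences were not tested.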
